A study of Homo sapiens with 24 samples.

Results

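The genes of the translation initiation and elongation factors were compared for their nascent transcription across 3 T47D clones in which TRPS1 can be degraded. The members were chosen by name. They were the protein-coding genes whose symbol starts with EIF or EEF and a digit, without the EIF2AK kinases, EIF1AY and the symbols that hold BP or NIF. The rule found 62 of the 60605 genes in the count table, and it used no measured value. Among them are the readthrough genes EEF1AKMT4-ECE2 and EEF1E1-BLOC1S5, which overlap EEF1AKMT4 and EEF1E1 on the same strand.

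T47D is a luminal, estrogen receptor-positive breast cancer cell line. In its dTAG-TRPS1 derivatives, TRPS1, a repressive GATA-family zinc finger factor, carries a degron tag, and the small molecule dTAG-13 brings the tagged protein to an E3 ligase. Clone 28, Clone 35 and Clone 39 are each a single clone, so a difference between them is a difference between 3 cell lines of one origin, and in all of them some TRPS1 copies were knocked out so that only the tagged protein remained. For 90 minutes each clone received either the vehicle (0.1% DMSO) or dTAG-13 at 100 nM, with 4 replicates of both, giving 6 groups and 24 libraries. Replicates differ in the hour of treatment and harvest on one day, and the DMSO and dTAG-13 dishes of a replicate were harvested at once. Nothing says that the replicates were separate cultures beyond separate dishes, so the p-values measure the spread between these dishes. Unless a term for pairs of dishes or for the replicate number is named, this spread also holds the hour of collection.

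Translation starts when eIF2 brings the initiator tRNA to the small ribosomal subunit, which eIF1, eIF1A and eIF3 hold open while eIF4E, eIF4G and the helicase eIF4A recruit the mRNA through its cap. eIF5 and eIF5B act at the start codon, eIF2B recharges eIF2 with GTP, and eEF1A and eEF2 then deliver tRNAs and move the ribosome. Many genes for this machinery begin with a pyrimidine run at the transcription start, the 5′ terminal oligopyrimidine motif, through which mTOR signalling controls the translation of their mRNAs.

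PRO-seq maps RNA polymerases that are engaged in transcription, so the values are polymerase reads over a gene and not mRNA levels. Total counts ran from 3226718 to 9575803 per library (median 5042122), and the members held between 0.561% and 0.626% of them. Levels are CPM, counts scaled to a common library size with TMM factors, and levels of different genes are compared as CPM per kb of gene span. The span is the full annotated extent of a gene, which can exceed the stretch transcribed in these cells. For EEF1A1 the RefSeq start (chr6:73521013-73521042, minus strand) lies inside the span (chr6:73489308-73525587), and for EIF3F it does too. Ranks between genes depend on this span, and other spans were not tried. The 9 luminal markers checked had medians from 1.02 CPM per kb (EPCAM) to 67.7 CPM per kb (KRT19), with ESR1 at 3.38 CPM per kb. Of 9 markers of basal or mesenchymal cells, stroma, endothelium or blood, KRT5 had a median of 0, and the others had medians of up to 0.146 CPM per kb (VIM) with the exception of COL1A1 at 0.714 CPM per kb. TP63 was read in all libraries, at 0.023 to 0.083 CPM per kb. TRPS1 itself was read at 5183 to 8747 CPM in DMSO and at 6304 to 9296 CPM in dTAG-13 libraries. Its log2 fold change was 0.19 (edgeR adjusted p = 0.733), and with a term for each pair of dishes collected together it was 0.20 and passed (edgeR adjusted p = 0.00066). dTAG-13 removes the protein and not the transcript, so these reads do not check the treatment.

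The members spanned a wide range of transcription. Per kb of gene span, 18 members were above 5 CPM, 35 lay between 1 and 5 CPM and 9 were below 1 CPM. Their median was 3.32 CPM per kb, against 1.02 CPM per kb over the tested genes. EIF4A2, which encodes an eIF4A helicase paralog, was the highest at 96.5 CPM per kb (71.2 to 127 over the 24 libraries). EIF1, a factor that keeps the scanning ribosome open, followed at 40.3 CPM per kb, and its range of 34.9 to 46.9 did not overlap that of EIF4A2. EIF5, whose protein is the GTPase activator of eIF2, stood at 18.8 CPM per kb and EIF4A1, the main cytoplasmic eIF4A gene, at 18.3 CPM per kb. With the reads of snoRNAs inside the genes included, the order of EIF5 and EIF4A1 differed by clone. Such snoRNAs took 16.1% of the EIF4A1 counts and 0.836% of the EIF5 counts, and the order without them was not compared. In Clone 39 EIF4A1 (9.41 to 12.2 CPM per kb over 8 libraries) lay below EIF5 (15.8 to 18.8) without overlap, while in Clone 28 (20.2 to 26.7 against 17.9 to 22.4) and in Clone 35 (18.6 to 27.8 against 17.2 to 19.5) the mean of EIF4A1 was the higher and the ranges overlapped. EEF2, the translocase gene, came next at 10.7 CPM per kb, within the spread of EEF1G (10.1 CPM per kb).

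At the low end stood paralogs and copies. EIF4E1B, an eIF4E relative known from germ cells, was read at 0.100 CPM per kb, with 1 to 17 counts per library. EIF2S3B, a retrocopy of the eIF2 gamma gene, was read at 0.149 CPM per kb. EIF5AL1, an EIF5A-like copy, was read at 0.191 CPM per kb with at most 10 counts in a library, and it was the single member that did not pass the filter on low counts. EIF4E3 (0.325 CPM per kb) and EIF5A2 (0.362 CPM per kb) were the next lowest.

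Within the paralog families a single gene usually led. Among the eIF4A genes the order was EIF4A2, EIF4A1 and EIF4A3 (5.81 CPM per kb, the helicase of the exon junction complex), and the mean of EIF4A2 was 4.76 times that of EIF4A1 in Clone 28, 4.87 times in Clone 35 and 7.11 times in Clone 39. EIF4E, the cap-binding protein gene (1.36 CPM per kb), and EIF4E2 (1.43 CPM per kb) did not differ beyond their spread, while EIF4E3 was below both in all libraries. Of the scaffold genes, EIF4G1 (9.94 CPM per kb) and EIF4G2 (9.88 CPM per kb) overlapped, and EIF4G3 stood at 0.870 CPM per kb over a span of 371 kb. EEF1A1 (8.10 CPM per kb) lay above EEF1A2 (2.71 CPM per kb), the paralog best known from neurons and muscle. EIF5A (3.39 CPM per kb) lay above EIF5A2, and EIF1 above EIF1B (4.59 CPM per kb).

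Genes for subunits of one complex differed in reads per kb of annotated span. Among the 14 eIF3 genes, levels ran from 4.59 CPM per kb for EIF3M to 0.817 CPM per kb for EIF3E, and their ranges did not overlap. The annotated span of EIF3E, 281 kb, is the longest of them, and a shorter transcribed stretch would raise its level per kb. Whether EIF3E would stay the lowest with another span was not tested. The 3 core eIF2 genes stood at 6.28 CPM per kb for EIF2S2, 4.54 CPM per kb for EIF2S1 and 3.97 CPM per kb for EIF2S3, and the range of EIF2S2 (5.74 to 7.10) lay above that of EIF2S1 (3.74 to 5.18). Of the eIF2B genes, EIF2B5 (6.59 CPM per kb) lay above EIF2B2 (5.01 CPM per kb) in Clone 28 and Clone 35 without overlap, but in Clone 39 the pair overlapped (4.53 to 5.87 against 4.91 to 5.67 CPM per kb), and EIF2B3, the gamma subunit gene with a span of 136 kb, was the lowest at 0.621 CPM per kb. EEF1G (10.1 CPM per kb) and EEF1B2 (7.51 CPM per kb), partners in the exchange complex of eEF1A, overlapped at the edge of their ranges (9.25 against 9.27 CPM per kb).

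**Figure D1:**
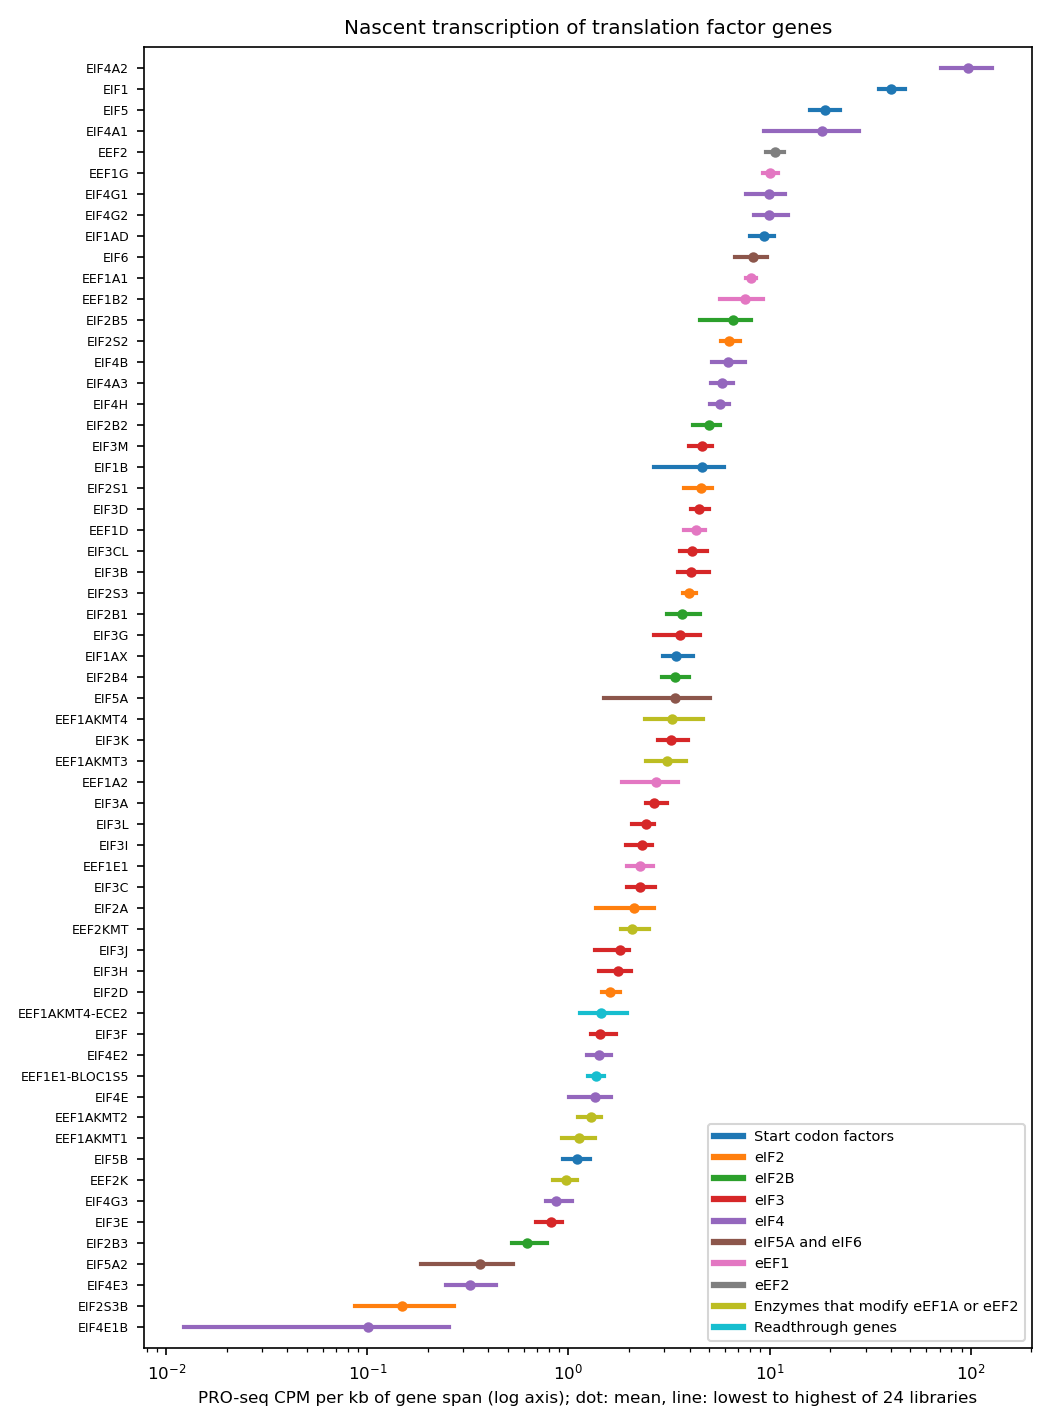
PRO-seq level of each member as CPM per kb of gene span on a log axis, with the mean as a dot and the lowest and highest of 24 libraries as a line, coloured by role (EIF2A and EIF2D are drawn with eIF2). On this scale, which depends on the annotated span, EIF4A2 and EIF1 stand apart at the top and EIF4E1B is the lowest. EIF5AL1, which has libraries at 0, is not drawn.

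Some of these reads belong to RNAs inside the genes. Of the members, 9 hold 19 annotated snoRNAs on their own strand, and the reads of a nested gene on the same strand were counted for its host too. The snoRNAs took 16.1% of the EIF4A1 counts (6.79% to 33.3% per library), 12% of EEF1B2, 10.8% of EIF4A2, 7.13% of EIF4G1 and 6.11% of EIF4G2, and less than these in the other 4 hosts. The levels per kb given above include the snoRNA reads. A same-strand gene overlapped 21 members and an antisense gene 34 members. EIF3C and EIF3CL are near-identical copies, so the split of reads between them is uncertain, as it is for EEF1A1, whose sequence recurs in processed pseudogenes.

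The starts of several members show the pyrimidine run. RefSeq promoter windows of 300 bases (GRCh38.p14) were at hand for 50 of the members. A C followed by at least 4 bases that were each C or T, starting within 5 bases of the annotated start, was found in 23 of them (46.0%) and in 28.7% of the tested genes with a window. This search also took runs off the start itself. In EIF1, EIF5, EIF5A2, EEF2K and EIF3C the run ended before the first transcribed base. The 23 are therefore not a count of mRNAs that carry the motif. The windows of 30 bases below, from 10 bases before the start to 20 after it, are shown because these members are textbook cases of the motif or carry the clone differences described later, and capitals mark the run. They lie at chr6:73521013-73521042 (EEF1A1, minus strand), chr2:206159885-206159914 (EEF1B2, plus strand), chr19:3985444-3985473 (EEF2, minus strand), chr11:7987327-7987356 (EIF3F, plus strand), chr22:36529147-36529176 (EIF3D, minus strand), chr3:186783567-186783596 (EIF4A2, plus strand), chr12:53006446-53006475 (EIF4B, plus strand) and chr3:150546777-150546806 (EIF2A, plus strand).
EEF1A1: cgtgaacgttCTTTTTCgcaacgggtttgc
EEF1B2: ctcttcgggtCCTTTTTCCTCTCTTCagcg
EEF2: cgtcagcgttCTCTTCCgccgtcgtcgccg
EIF3F: cttccgCCTCCTTCTTTCTCgacaagatgg
EIF3D: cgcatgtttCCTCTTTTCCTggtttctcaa
EIF4A2: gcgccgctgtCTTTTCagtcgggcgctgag
EIF4B: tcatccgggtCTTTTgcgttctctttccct
EIF2A: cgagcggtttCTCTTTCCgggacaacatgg
The run began on the first transcribed base in EEF1A1, EEF1B2, EEF2, EIF4A2, EIF4B and EIF2A. The share of all genes with a run on that base was not compared. A GATA-type match (AGATAA or TGATAA, both strands) was present in 1 member window, that of EIF4G2 (2%), and in 19.4% of all windows and 13.4% of those of tested genes. A match is a description of the letters in a window and says nothing about binding.

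Degradation of TRPS1 for 90 minutes did not move any member past the threshold. Over the 3 clones together, 0 of 61 tested members were called at an adjusted p below 0.1 (edgeR quasi-likelihood test), against 0.551% of all 22326 genes tested, that is 123 genes. Of these 80 rose (0.358%) and 43 fell (0.193%). At an unadjusted p below 0.05 there was 1 member, EEF1B2, and 1411 genes (6.32%). DESeq2 also called 0 members. With a term for each pair of dishes collected together, 521 genes (2.33%) and 0 members were called, and the smallest adjusted p of a member was 0.284, for EIF3H.

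The estimates lay close to 0. Of the members, 34 had a positive and 27 a negative log2 fold change, with a median of 0.0024 against −0.0018 over all genes, and 57 were smaller than 0.1 in size. The 95% interval lay within 0.25 log2 units of 0 for 56 members and within 0.5 for 60. EIF2S3B, EEF1B2, EIF1B, EIF5A2 and EIF4E1B had wider or more distant intervals. The log2 fold change was positive in all 3 clones for 5 members (EIF1AX, EIF3H, EIF4A3, EIF5B and EIF6) and negative in all 3 for 8 members. The same signs were shared by 15% and 15.2% of all genes.

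EEF1B2, the nucleotide exchange factor of eEF1A, had the lowest value. In Clone 28 its DMSO libraries read 28.6, 21.8, 31.0 and 27.9 CPM for replicates 1 to 4, and its dTAG-13 libraries 22.2, 24.8, 28.2 and 24.3 CPM. In Clone 35 they read 28.8, 22.7, 20.4 and 26.1 CPM in DMSO and 20.4, 25.9, 20.6 and 21.4 CPM in dTAG-13. In Clone 39 they read 26.9, 23.9, 29.4 and 30.0 CPM in DMSO and 28.6, 24.5, 19.0 and 25.4 CPM in dTAG-13. The groups overlapped in each clone, and dTAG-13 was the lower of the 2 dishes in 7 of 12 pairs. The log2 fold change was −0.15 ± 0.07 (SE, edgeR, n = 12 and 12), with an adjusted p of 0.760. With the snoRNA reads taken out of the gene, the estimate was −0.08 with an adjusted p of 0.999.

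EIF3H, an eIF3 subunit gene on 8q like TRPS1, had the highest value, 0.07 ± 0.04 (SE, edgeR, n = 12 and 12) with an adjusted p of 0.910, and was higher in dTAG-13 in 10 of 12 pairs. EIF1AX, the eIF1A gene of the X chromosome, had 0.06 and EIF3J, a loosely bound eIF3 subunit, 0.05. At the other end stood EIF4E1B (−0.12, 95% interval −0.60 to 0.37) and EIF1B (−0.11, interval −0.31 to 0.09). None of these values passed the test, and the interval of EIF4E1B leaves room for changes of more than 0.3 in either direction.

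EEF1A1, EIF1, EIF2S2 and EEF1A2 stand on gene lists that the study drew from a separate time course of TRPS1 depletion in Clone 28, whose libraries were not analysed here. EEF1A1 had a log2 fold change of 0.02 (95% interval −0.04 to 0.07), and EIF1 of −0.01 (−0.10 to 0.08). EIF2S2, the eIF2 beta gene, had 0.0024 (−0.07 to 0.07), and EEF1A2 0.00082 (−0.16 to 0.16). Their libraries ran from 277 to 312 CPM for EEF1A1 and from 20.7 to 39.3 CPM for EEF1A2, and the treatments overlapped in both.

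**Figure D2:**
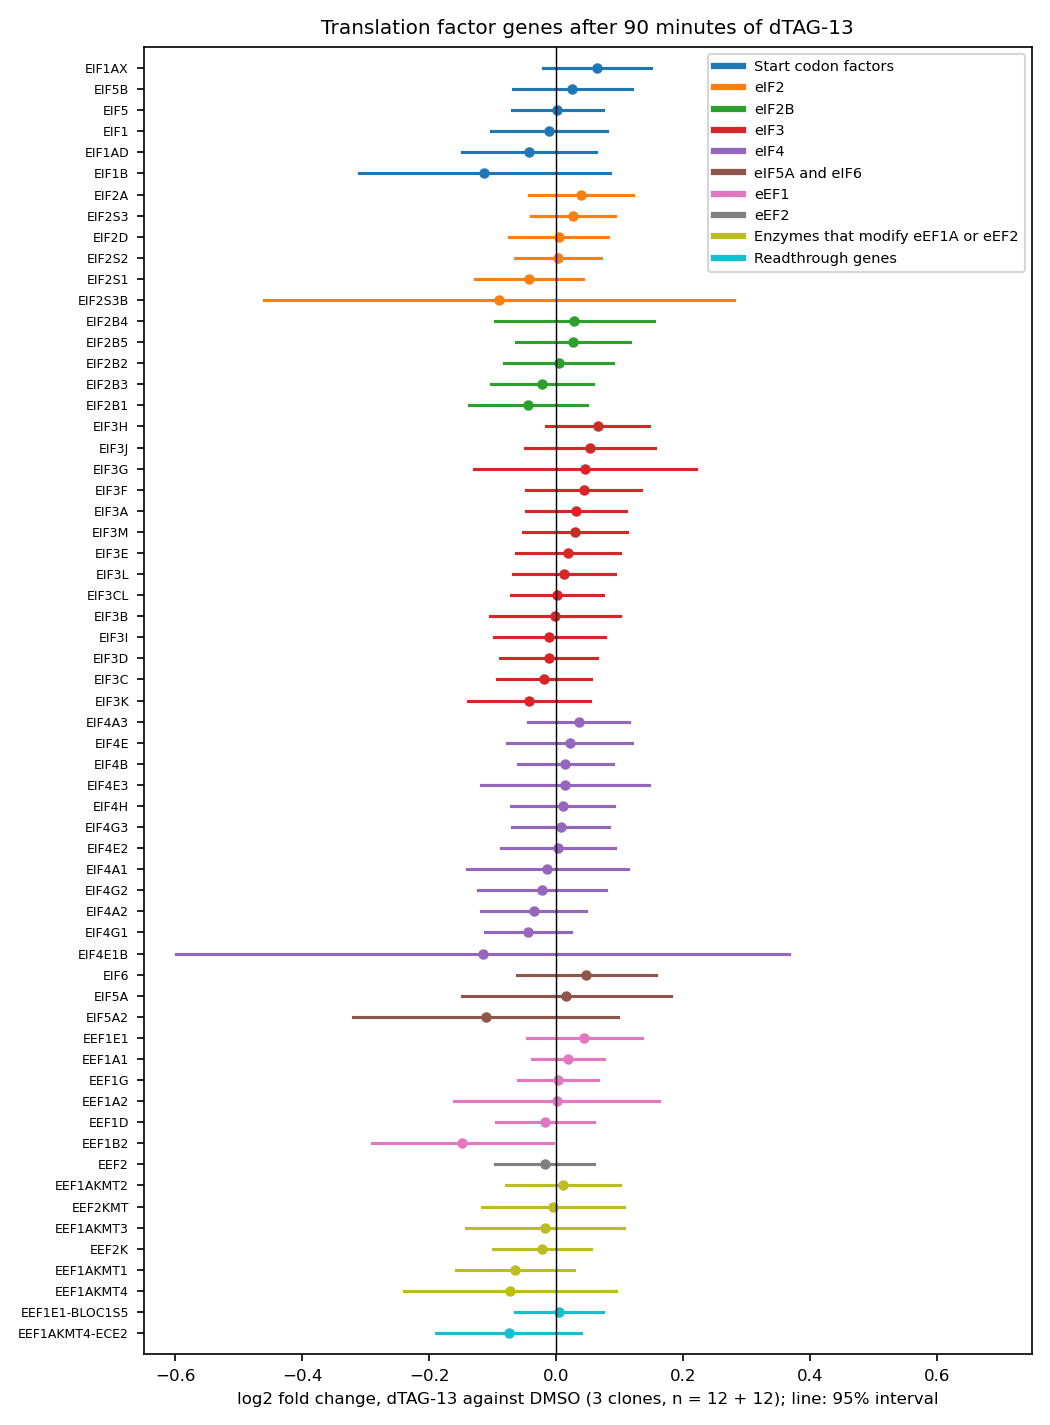
log2 fold change of each tested member between dTAG-13 and DMSO over the 3 clones (12 libraries each), with 95% intervals from the edgeR fit without the term for pairs, grouped and coloured by role. The intervals include 0 except that of EEF1B2, which passed no adjusted threshold, and the widest is that of EIF4E1B.

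By role, the medians lay close to 0. Among the eIF3 genes 9 of 14 were positive (median 0.02, from −0.04 to 0.07), among the eIF4 genes 7 of 12 (median 0.0052), and among the eIF2 subunit genes, EIF2A and EIF2D 4 of 6 (median 0.0034). The enzymes that modify eEF1A or eEF2, such as the kinase gene EEF2K, had 5 of 6 negative values, from −0.07 to 0.01. Within single clones 0 members were called as well, against 0.0537% of genes in Clone 28 (12 genes) and 0 genes in Clone 35 and in Clone 39. At an unadjusted p below 0.05 there were 0 members in each clone, against 4.83%, 2.89% and 3.38% of genes. With the term for pairs 263 (1.18%), 21 (0.0941%) and 16 genes (0.0717%) were called, again with 0 members. At an unadjusted p below 0.05 that fit gave 3 members in Clone 28, 2 in Clone 35, 0 in Clone 39 and 3 over the clones together. In Clone 39 the estimates were positive for 18 and negative for 43 members (median −0.01, with 48.9% of all genes positive), and in Clone 28 for 35 and 26 members. The effect of dTAG-13 did not differ between clones for any member (edgeR quasi-likelihood F test, 0 of 61 called, 0 members at an unadjusted p below 0.05, and 0 genes called of 22326 with 407 (1.82%) at an unadjusted p below 0.05).

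Of 31 further genes of the pathway, among them the eIF2 alpha kinases, the 4E-BPs, release factors and mTOR pathway genes, 30 were tested and 0 passed, with log2 fold changes from −0.08 to 0.11. The highest was PDCD4, an inhibitor of eIF4A, which passed with the term for pairs (adjusted p = 0.014).

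The clones themselves differed far more than the treatments. Between Clone 28 and Clone 39 in DMSO, 19 of 61 members passed the test, against 26.7% of all genes, with 10 lower and 9 higher in Clone 39 (14.3% and 12.4% of genes). Between Clone 35 and Clone 39, 14 members passed against 22.6% of genes, with 8 lower and 6 higher in Clone 39 (12.9% and 9.64% of genes). Between Clone 28 and Clone 35, 1 member passed against 5.25% of genes. The member counts lie near or under the background, so the genes and not the number carry the result. Both comparisons with Clone 39 share its libraries. In both, 7 members were lower in Clone 39 (EIF5A, EIF4A1, EIF2A, EIF2B5, EIF4A2, EIF4G1 and EIF4B), against 9.46% of all genes, and 4 were higher (EIF4E3, EIF2B3, EIF2S2 and EIF3CL), against 7.05%. The 7 lower genes were called in the dTAG-13 libraries of both pairs of clones too, where 26.4% of genes were called for Clone 28 and 21.5% for Clone 35.

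EIF5A, whose protein helps ribosomes through proline stretches and carries hypusine, had the largest difference among the members shared by both comparisons. It lies at chr17:7306999-7312463 (hg38). In DMSO its libraries read 26.1, 18.9, 24.1 and 19.8 CPM in Clone 28, 22.4, 22.8, 27.5 and 21.6 CPM in Clone 35, and 10.8, 8.24, 10.9 and 8.99 CPM in Clone 39. With dTAG-13 they read 23.4, 23.5, 26.0 and 21.6 CPM in Clone 28, 22.1, 19.3, 23.3 and 17.9 CPM in Clone 35, and 9.47, 13.1, 9.06 and 13.4 CPM in Clone 39. No library of Clone 39 reached the lowest library of the other clones. The log2 difference was 1.18 ± 0.15 between Clone 28 and Clone 39 (SE, edgeR adjusted p = 1.25e-07, n = 4 and 4) and 1.28 ± 0.14 between Clone 35 and Clone 39 (edgeR adjusted p = 1.82e-08).

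EIF4A1, at chr17:7572824-7579006, lies close to EIF5A. In DMSO it read 165, 125, 141 and 131 CPM in Clone 28, 148, 127, 122 and 130 CPM in Clone 35, and 74.4, 58.2, 71.4 and 69.7 CPM in Clone 39. Again the groups did not overlap. The difference to Clone 39 was 1.03 ± 0.11 for Clone 28 (SE, edgeR adjusted p = 1.61e-07) and 0.94 ± 0.11 for Clone 35 (edgeR adjusted p = 6.84e-07), and with the snoRNA reads taken out it was 1.07 and 1.06.

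The long arm of chromosome 3 held the next group. EIF2A, which encodes a factor that can bring the initiator tRNA without eIF2, read 79.9 to 94.7 CPM in Clone 28, 90.2 to 101 CPM in Clone 35 and 53.9 to 67.4 CPM in Clone 39 in DMSO. The differences to Clone 39 were 0.50 ± 0.07 for Clone 28 and 0.62 ± 0.07 for Clone 35 (SE, edgeR adjusted p = 2.43e-06 and 3.99e-08). EIF2B5, the catalytic eIF2B epsilon gene, differed by 0.44 and 0.48, EIF4A2 by 0.48 and 0.42, and EIF4G1 by 0.31 and 0.35. In each of these 4 genes, as in EIF5A and EIF4A1, all 8 libraries of Clone 39 lay below all 16 of the other clones. This held for 6 of 61 members, for 4.82% of all genes tested and for 39.3% of the 662 tested genes of chromosome 3 after 100 Mb. Of the 7 tested members on this arm, all 7 had lower estimates in Clone 39 in both comparisons, as had 87.3% (Clone 28) and 85.3% (Clone 35) of the other genes there after 100 Mb. The 7 are not separate, since EEF1AKMT4 and the readthrough gene EEF1AKMT4-ECE2 overlap on one strand and share reads. Neither passed against Clone 28 (edgeR adjusted p = 0.530 and 0.184). EIF5A2 passed against Clone 28 (0.71 ± 0.19, edgeR adjusted p = 0.006) and not against Clone 35 (0.32 ± 0.19).

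**Figure D3:**
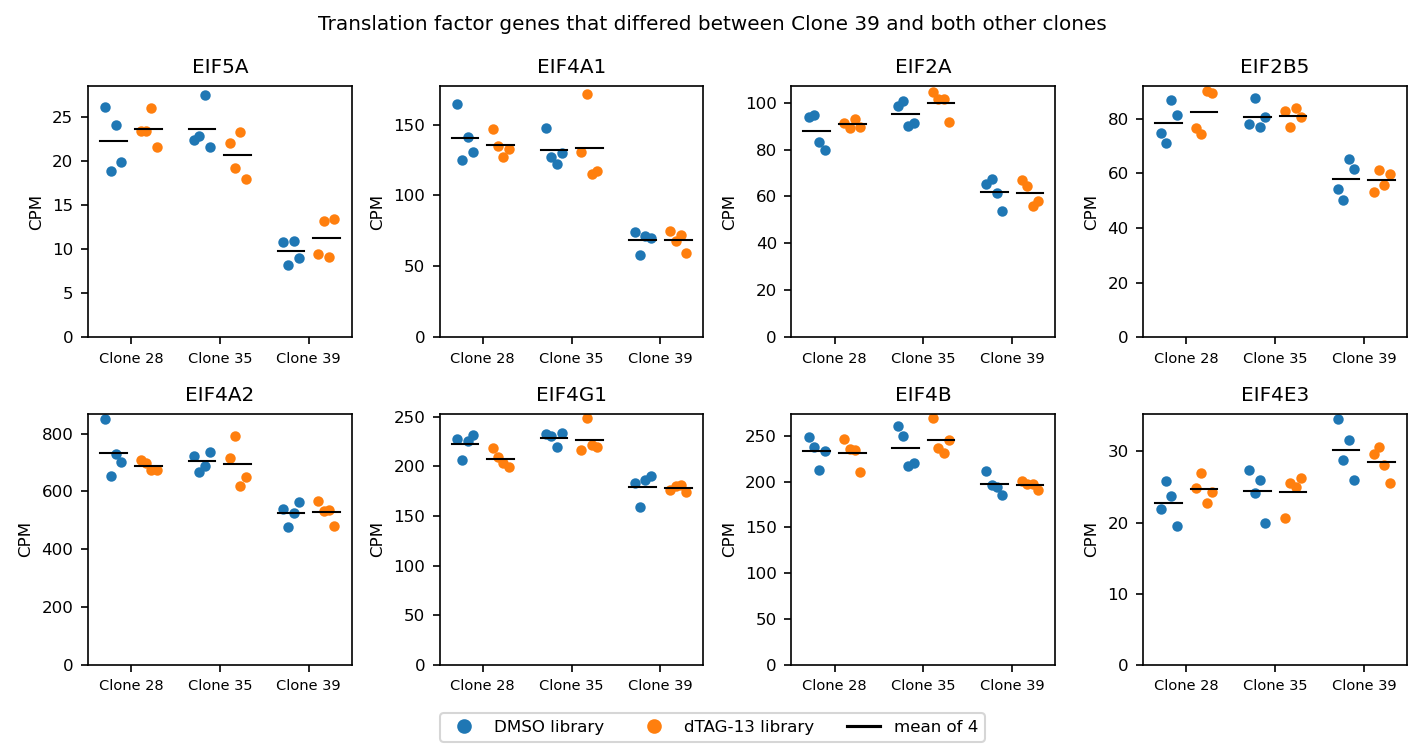
CPM of 8 members that differed between Clone 39 and both other clones, with a point per library, DMSO in blue and dTAG-13 in orange, and black bars for the mean of 4. EIF5A and EIF4A1 in Clone 39 lie far below the other clones, EIF4B overlaps them slightly, and EIF4E3 is higher in Clone 39.

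The neighbours of these genes differed in the same direction. Within 5 Mb of EIF4A1, 207 other tested genes had a median log2 difference of 0.87 between Clone 28 and Clone 39 and 0.94 between Clone 35 and Clone 39, and 96.1% of them were lower in Clone 39 than in Clone 28. The values of EIF4A1 (1.03 and 0.94) and EIF5A (1.18 and 1.28) stand beside these. Within 5 Mb of EIF2A the 49 neighbours had medians of 0.64 and 0.63, around EIF4G1 the 104 neighbours had 0.34 and 0.36, and around EIF4A2 the 84 neighbours had 0.35 and 0.37. The shift on chromosome 3 was not confined to the long arm. EIF1B on the short arm differed by 0.33 and 0.31 without passing, and its 96 neighbours had medians of 0.31 and 0.33. Over all other genes before 90 Mb the medians were 0.13 and 0.09. EIF4B on chromosome 12 differed by 0.24 and 0.26, with 0.22 and 0.09 for its 271 neighbours. EIF2B1, also on chromosome 12, was higher in Clone 28 than in Clone 39 by 0.22, the median of its 130 neighbours being 0.22 too. DNA copy number was not measured here, and its part in these differences was not tested.

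EIF4E3, an atypical cap-binding protein gene at chr3:71675414-71754773, was higher in Clone 39, by a log2 difference of −0.41 ± 0.12 for Clone 28 and −0.32 ± 0.11 for Clone 35 (SE, edgeR adjusted p = 0.008 and 0.043). Its 42 neighbours did not share the difference, with medians of 0.02 and 0.02. Its DMSO libraries read 21.9, 25.8, 23.7 and 19.4 CPM in Clone 28, 27.4, 24.2, 26.0 and 19.9 CPM in Clone 35, and 34.5, 28.8, 31.6 and 26.0 CPM in Clone 39, so the groups of Clone 35 and Clone 39 overlapped. In the dTAG-13 libraries it did not pass in either pair. EIF2B3 (−0.19 and −0.22), EIF2S2 (−0.17 and −0.16) and EIF3CL (−0.17 and −0.15) were smaller differences of the same direction. In the dTAG-13 libraries EIF2B3 passed against Clone 28 and not against Clone 35, and EIF2S2 and EIF3CL passed in neither pair. EIF3CL was −0.07 (edgeR adjusted p = 0.503) and −0.10 there, and in DMSO its call against Clone 35 was lost in 13 of 24 fits that left out a replicate.

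EIF3E and EIF3H, the eIF3 subunit genes on 8q, were higher in Clone 39 than in Clone 28, by −0.20 ± 0.07 and −0.22 ± 0.07 (SE, edgeR adjusted p = 0.037 and 0.024). Against Clone 35 neither passed. In the dTAG-13 libraries EIF3H passed against Clone 28 (−0.18) and EIF3E did not (−0.10, edgeR adjusted p = 0.341). EIF4E1B was lower in Clone 28 than in both other clones (−1.65 ± 0.47 against Clone 35, edgeR adjusted p = 0.038, and −1.76 ± 0.48 against Clone 39, edgeR adjusted p = 0.007), on 12 counts over the 4 DMSO libraries of Clone 28, 50 in Clone 35 and 39 in Clone 39. In the dTAG-13 libraries, with 20, 48 and 29 counts, neither difference passed, and with DESeq2 it was not called against Clone 35. With the replicate number as a block, 4 members were called between Clone 28 and Clone 35 (EIF2B1, EIF3H, EIF4E1B and EIF5), against 11.9% of genes.

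**Figure D4:**
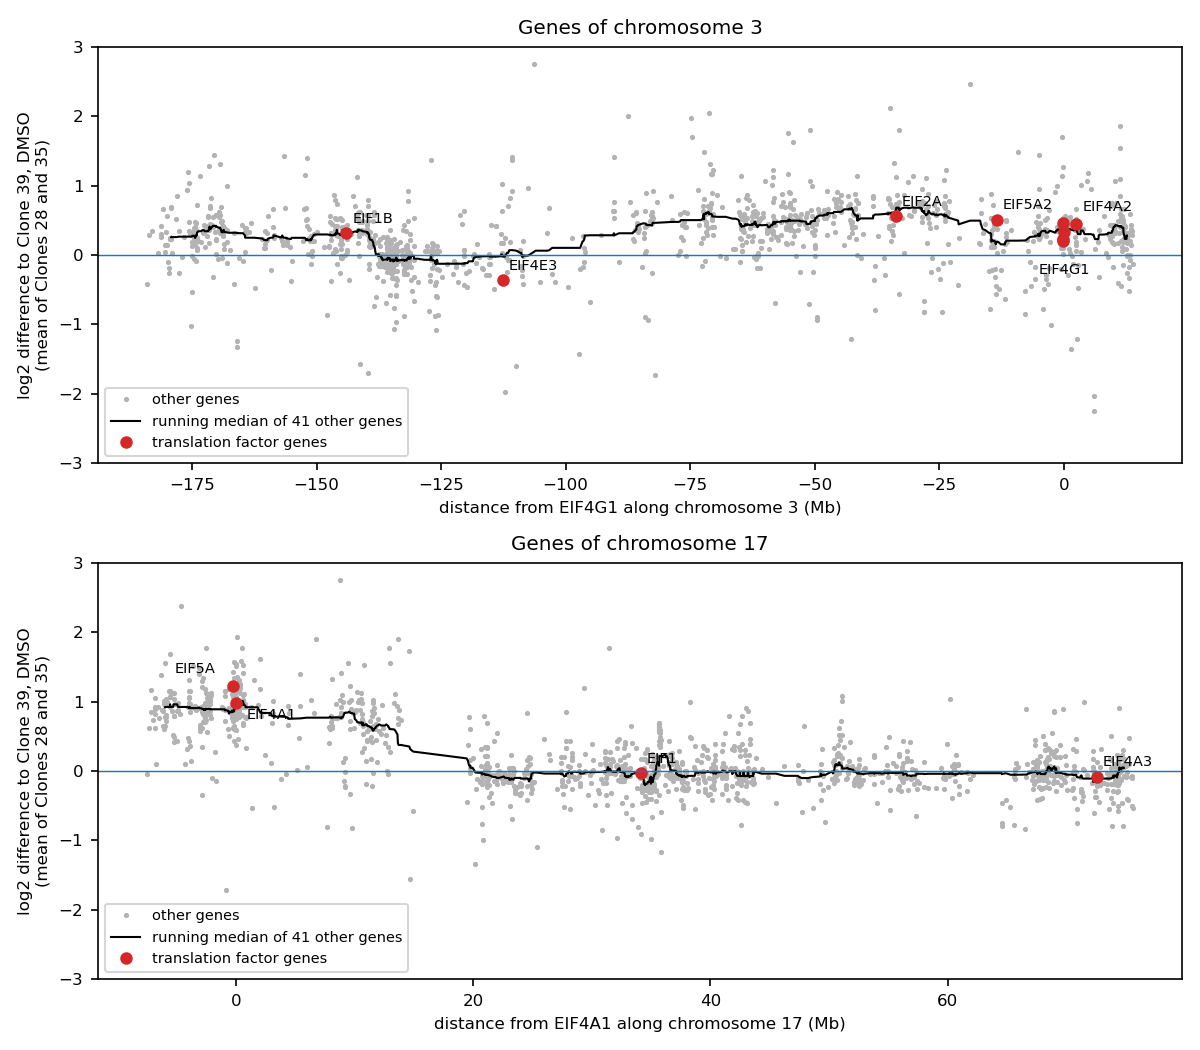
log2 difference to Clone 39 in DMSO (mean of Clones 28 and 35) of the genes of chromosomes 3 and 17 by their distance in Mb from EIF4G1 and EIF4A1, with members in red, other genes in grey and a running median of 41 other genes in black. EIF4A1 and EIF5A lie in a stretch whose genes sit near 0.9, EIF1 and EIF4A3 further along chromosome 17 sit near 0, and EIF4E3 lies below its neighbours.

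Members also differed between the replicate numbers, which mark collection times within the day. 29 of 61 members passed the test of the 4 numbers (edgeR quasi-likelihood F test over 24 libraries), against 37.2% of all genes. That a number stands for one time in all 3 clones is an assumption. Among the 29, both numbers 1 and 2 lay above both 3 and 4 in 13 members and below both in 12, where 14.7% and 15.2% of all genes were called with these orders. The differences were small, with a median of 0.18 log2 units between the highest and the lowest number, against 0.29 over all genes called. Both medians are over called genes, and a gene with few reads needs a larger difference to be called. The medians were not compared at equal depth. 10 of 14 eIF3 genes passed, 5 of 12 eIF4 genes and 4 of 6 genes listed as start codon factors (EIF1, EIF1AD, EIF5 and EIF5B). A start codon role of EIF1AD was assumed for that list.

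EIF4G2, a scaffold gene for cap-independent initiation, had the smallest p (edgeR adjusted p = 4.34e-08). Its 6 libraries of number 1 ran from 123 to 146 CPM (median 132), of number 2 from 113 to 126 (median 118), of number 3 from 102 to 115 (median 110) and of number 4 from 99.2 to 112 (median 110). Number 1 lay above numbers 3 and 4 without overlap. EIF3H and EIF3E moved in the same direction, with medians of 233, 229, 206 and 211 CPM for EIF3H and of 240, 241, 224 and 217 CPM for EIF3E (edgeR adjusted p = 1.88e-05 and 5.25e-05).

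EIF1 moved the other way, with medians of 146, 140, 165 and 159 CPM (edgeR adjusted p = 2.21e-06). EEF1A2 did so too, with medians of 26.4, 26.1, 32.2 and 35.1 CPM (edgeR adjusted p = 0.00025). Its libraries overlapped between all the numbers, also between number 1 (22.0 to 33.9 CPM) and number 4 (30.1 to 39.3 CPM). EIF3B, the eIF3 scaffold gene, followed neither order. It had medians of 118, 99.8, 103 and 111 CPM (edgeR adjusted p = 1.29e-05).

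The called members that were higher in numbers 1 and 2 had a median span of 35.9 kb (11.5 to 281), and those that were lower had 11.2 kb (3.78 to 43.3). Across the 61 tested members, the difference between numbers 1 and 2 and numbers 3 and 4 went with the log of the span with a Spearman rho of 0.47 (Pearson r 0.47). Over all 22268 tested genes with a known span rho was 0.32 (Pearson r 0.07). The genes share libraries and are not independent, so these are descriptions, and why they go together was not tested.

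**Figure D5:**
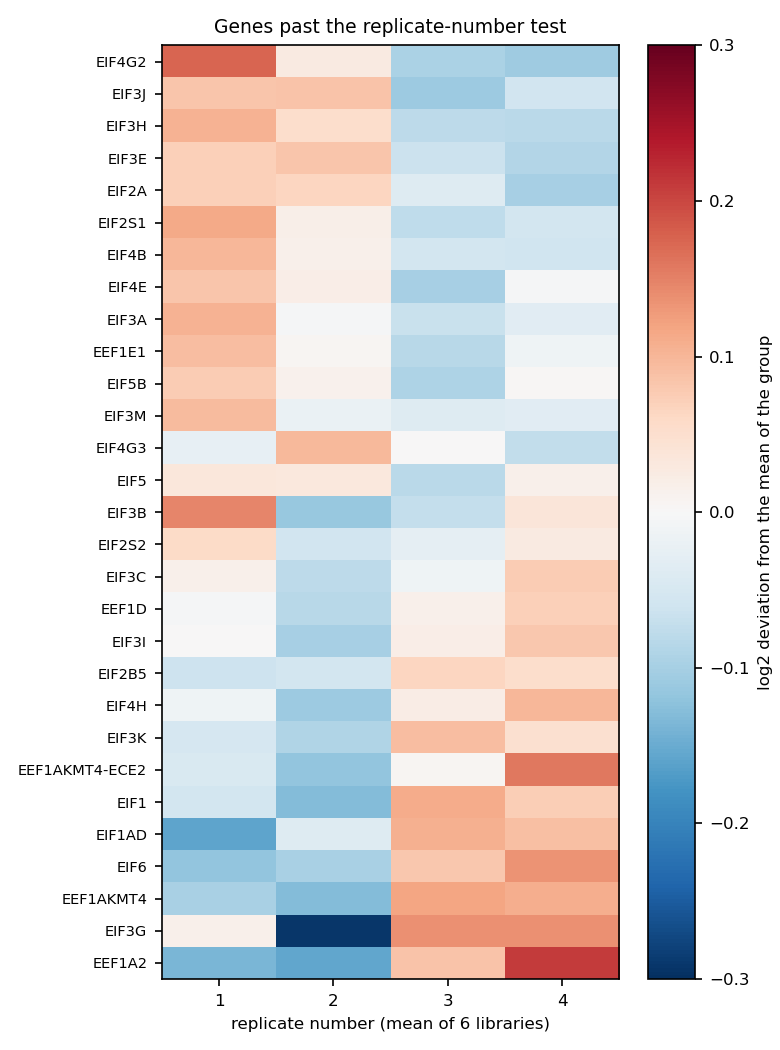
Mean log2 deviation from the group mean for each replicate number (6 libraries each) in the 29 members past the replicate-number test, ordered by the difference between numbers 1 and 2 and numbers 3 and 4. Red is higher and blue lower; EIF4G2 stands at the top and EEF1A2 at the bottom, and EIF3B follows neither order.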

How the data were processed

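PRO-seq, a nuclear run-on assay of engaged RNA polymerase, was done in 24 libraries. The deposited file holds raw counts of reads per gene, which the authors made by trimming with cutadapt 1.8.1, removing PCR duplicates by molecular identifiers and reads of ribosomal DNA, aligning to hg38 with Bowtie2 2.4.4, sorting with SAMtools 1.9 and counting in genes with bedtools. The counting annotation and strand setting are not given in the sources used here. Nested genes on the opposite strand had a median read density of 0.0279 of their host (707 genes) and those on the same strand 0.830 (325 genes), so reads of overlapping same-strand genes are shared. Gene names and spans came from GENCODE v44 and promoter sequences from RefSeq.

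Counts were tested with edgeR 4.0.16 in R 4.3.3 (filterByExpr with a minimum count of 10, TMM, robust quasi-likelihood test, 6 groups), with Benjamini-Hochberg adjustment over 22326 genes and a threshold of 0.1. DESeq2 1.42.0, other scalings and filters, each replicate left out and each clone left out were alternatives, and subtraction of snoRNA counts was added after seeing the data. Scripts were tested on simulated data. Dishes with the same number in a clone were collected together per the study's methods, and their deviations correlated with a mean of 0.189 (0.0960 to 0.324 over 12 pairs). Replicate libraries differed by more than sampling noise (chi-square per degree of freedom 1.64 to 13.6 over 36 pairs). The intervals cover the spread between libraries.

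The members and lists were chosen with earlier results of these data known. Genes were named with values if they passed the treatment test, had the 3 largest rises or falls, stood on the study's time course lists, had the 3 largest differences per pair of clones, had the 5 smallest p for replicate number or were among the 5 highest or lowest levels, together with the paralog families and EIF3E and EIF3H. EIF2B1, EIF4B, EIF4E3, the other genes shared by both comparisons with Clone 39 and the subunit genes whose levels are compared were chosen after their values were seen.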

Additional observations from a re-analysis of the deposited data

Results flagged for a closer look

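Among 168 groups of 4 libraries (28 named genes in 6 groups), 7 had a library far from the other 3, where chance gives about 1 in 20 groups, or 8.4. EIF1B read 7.21 CPM in replicate 1 of Clone 28 in DMSO, against 15.9 to 16.1 CPM in the other 3. EIF3B read 127 CPM in replicate 1 of Clone 35 in DMSO, against 101 to 105 CPM. EIF4G3 read 355 CPM in replicate 2 of Clone 28 in DMSO, against 286 to 292 CPM, and EIF4G1 read 249 CPM in replicate 2 of Clone 35 with dTAG-13, against 217 to 221 CPM. EEF1A1 read 287 CPM in replicate 3 of Clone 39 in DMSO, against 296 to 298 CPM. EEF1A2 read 39.3 CPM in replicate 4 of Clone 35 with dTAG-13, against 33.5 to 34.0 CPM, and EIF2S3B read 2.24 CPM in replicate 2 of Clone 28 with dTAG-13, against 2.63 to 2.70 CPM.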

How the results depend on the processing

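The count of members called between dTAG-13 and DMSO was 0 under every alternative run, including DESeq2 and the replicate block. EIF5A, EIF4A1, EIF2A, EIF2B5, EIF4A2, EIF4G1 and EIF4B were past the threshold in both comparisons with Clone 39 under every alternative, and EIF5A2 was so against Clone 28. The replicate block changed no other call of these genes. For the replicate number, EIF4G2 alone was past the threshold under every alternative. The cause of the changes below was not tested.

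Between Clone 28 and Clone 35 in DMSO, 4 members were called with the replicate block, 0 with at least 10 counts in every library, 0 with DESeq2 and 0 to 2 without single replicates. Leaving out single replicates gave 11 to 23 members for Clone 28 against Clone 39, 9 to 15 for Clone 35 against Clone 39 (7 in the dTAG-13 libraries), and 25 to 32 for the replicate number. For the replicate number DESeq2 called 19 members, and 12, 7 and 5 members were called in Clone 28, Clone 35 and Clone 39 alone. The all-gene count for that number was 5239 with DESeq2 and 3019, 1863 and 2016 in the single clones.

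The all-gene count between dTAG-13 and DMSO was 521 with the replicate block, 197 with no filter, 64 at a threshold of 0.05, and 1, 37 and 37 without Clone 28, Clone 35 and Clone 39. In Clone 28 it was 263 with the block, 7 with RLE size factors, 22 with library totals, 87 with no filter, 23 with at least 10 counts in every library, 34 with DESeq2 and 4 at 0.05. In Clone 35 and Clone 39 it was 21 and 16 with the block, 4 and 2 with no filter, and 1 and 1 with DESeq2. The difference between clones gave 1 gene with the block and 6 with no filter, and Clone 28 against Clone 35 gave 2664 with the block.

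Some dTAG-13 estimates near 0 changed sign. EIF4E1B was 0.010 without Clone 39, with −0.21 to 0.015 when single replicates were left out. EIF1 was 0.024 without Clone 35, with −0.030 to 0.0064. EIF2S2 was −0.00014 with no filter and −0.017 without Clone 28, with −0.0077 to 0.017. EEF1A2 was −0.0024 with the block, −0.0010 with library totals, −0.0017 with no filter, −0.025 without Clone 35 and −0.029 without Clone 39, with −0.039 to 0.040. Depth limits EIF4E1B, EIF2S3B and EIF5AL1 the most.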

Other observations

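Among 30 tested genes that act on the same pathway but are not factors by name, 13 passed the test of replicate number in edgeR, against 37.2% of all genes. Between Clone 28 and Clone 39 in DMSO, 4 of them were higher in Clone 28 and 9 were lower (14.3% and 12.4% of all genes). Between Clone 35 and Clone 39, 2 were higher in Clone 35 and 5 were lower (12.9% and 9.64% of all genes), and between Clone 28 and Clone 35, 1 was higher in Clone 28 and 0 were lower (5.25% of all genes called in either direction). EEFSEC, the elongation factor gene for selenocysteine, was higher in Clone 28 than in Clone 39 by 0.69 (edgeR adjusted p = 1.56e-10), and EIF2AK2, the gene of the kinase PKR, was lower by a log2 difference of −0.62 (edgeR adjusted p = 5.59e-06). DENR, a reinitiation factor gene on chromosome 12, was higher in Clone 28 than in Clone 35 by 0.33 and than in Clone 39 by 0.34. The genes of chromosome 12 other than the members had median differences of 0.16 and 0.17 in these comparisons. EEFSEC was also higher in Clone 35 than in Clone 39, by 0.69. The neighbours of EEFSEC, EIF2AK2 and DENR were not compared, so a difference shared with a region cannot be told apart here.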
